A study of Mus musculus with 12 samples.

Results

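The genes described here are 38 mouse genes of phospholipid synthesis, listed for growth of the endoplasmic reticulum (ER) membrane. They are part of 24189 gene names that all 10 RNA-seq libraries share. The list also holds mitochondrial enzymes (Gpam and Pisd) and enzymes of the path to cardiolipin (Pgs1 and Crls1). The 38 were taken by name from a list of enzymes and transporters. All 38 were found. For 7 of them (Chkb, Chpt1, Cept1, Ptdss1, Agpat1, Pgs1 and Lpcat3) the gene name carries a suffix that marks overlap with another gene.

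The libraries came from plasmablasts (PBs) and splenic plasma cells (PCs) of C57BL/6 mice, with 2 libraries in each of 5 groups. PBs were grown from splenic CD43- B cells on 40LB feeder cells, a fibroblast line that provides CD40L and BAFF, with IL-4 and then IL-21, and were sorted on day 8 by a gate that included CD138+ and CD23-. The control PBs carried Xbp1 fl/fl alleles without Cre. The Xbp1-deficient PBs carried Cd23-Cre and Xbp1 fl/fl alleles, and Cd23-Cre deletes in B cells before they become PBs. The Bhlha15 CreER/CreER PBs had CreER inserted into both copies of Bhlha15, the gene of the transcription factor Mist1. PCs were sorted as TACI+CD138+ spleen cells on day 7 after immunization with NP-KLH in alum. The Mist1-deficient PCs carried Cd23-Cre and Bhlha15 fl/fl, in which the floxed allele also codes for a biotin acceptor sequence at the Mist1 N terminus. Their controls are labelled as wild type, whereas the study's methods give Bhlha15 fl/fl. Ages are not given in the sources used here. The study describes the 2 libraries of a genotype as independent experiments, and the sources used here do not say how many animals each came from. Mist1 binding was mapped by biotin-tag ChIP-seq in 2 experiments on CD138+ PBs that had been stimulated with LPS for 4 days and carried Bhlha15 fl/fl and R26 BirA/BirA alleles.

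As background, the Kennedy pathway makes phosphatidylcholine and phosphatidylethanolamine at the ER of animal cells. In it, choline or ethanolamine is phosphorylated by a kinase, activated with CTP by a cytidylyl transferase and joined to diacylglycerol by a final transferase. Diacylglycerol comes from glycerol-3-phosphate by way of lysophosphatidic and phosphatidic acid, the latter being dephosphorylated by the lipins, and phosphatidic acid is also the source of CDP-diacylglycerol for phosphatidylinositol and cardiolipin. Antibody-secreting cells enlarge their ER as they begin to secrete, and the transcription factor XBP1, an effector of the unfolded protein response, is known to be needed for that growth.

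Values are TPM, transcript abundance scaled for gene length and for the library total, so that levels of different genes can be set side by side. Sequencing depth is unknown, since TPM does not keep it, and 11514 to 12024 genes reached 1 TPM in a library. The labels were checked on the targeted genes. Bhlha15 stood at 176 and 159 TPM in control PBs, at 0.210 and 0.551 TPM in Bhlha15 CreER/CreER PBs, at 258 and 242 TPM in control PCs and at 14.4 and 16.6 TPM in Mist1-deficient PCs. Xbp1-deficient PBs also had only 3.57 and 2.60 TPM of Bhlha15 (log2 difference from control −5.93, adjusted p = 7.61e-06), so that Mist1 mRNA was low in them as well. The gene-level Xbp1 value was 3168 and 3043 TPM in control and 1981 and 2024 TPM in Xbp1-deficient PBs, and it does not separate transcripts with and without the deleted part. Marker sums differed between groups: 8 markers of antibody-secreting cells summed to 41761 to 41765 TPM in control PBs, 21029 to 21660 TPM in Xbp1-deficient PBs and 91316 to 97311 TPM in control PCs. The list did not move as a whole in Xbp1-deficient PBs: Mzb1 was at 15573 and 14995 TPM in control and 3707 and 3547 TPM in Xbp1-deficient PBs, whereas Irf4 was at 683 and 651 TPM beside 865 and 971 TPM, Prdm1 at 205 and 175 TPM beside 239 and 296 TPM, and Sdc1 (CD138) at 166 and 157 TPM beside 157 and 157 TPM. The sum of 6 markers of fibroblasts and feeder cells was 928 to 1108 TPM in control PBs, 1291 to 1414 TPM in Xbp1-deficient PBs and 1.51 to 1.56 TPM in control PCs. Exons of 13 members overlap those of another annotated gene, in 12 cases on the opposite strand, and the strand setting of the counting is not given in the sources used here. For these members, which include Slc44a1, Chkb, Chpt1, Cept1, Pisd (overlap on the same strand), Agpat1, Agpat2, Pgs1 and Crls1, reads of the partner gene could be part of the value.

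In control PBs the steps of phospholipid synthesis were carried by unequal amounts of mRNA. Etnk1, the ethanolamine kinase, had the highest level of all members, at 261 and 254 TPM. Slc44a1, a choline transporter-like protein, followed at 148 and 132 TPM. Cdipt (phosphatidylinositol synthase), Agpat1 (a lysophosphatidic acid acyltransferase) and Agpat6 (the ER glycerol-3-phosphate acyltransferase GPAT4) came next, at 126 and 114, 114 and 115, and 106 and 101 TPM. The values of Cdipt and Agpat1 overlapped, so that their order is not resolved. Chka and Chkb, the choline kinases, were low beside Etnk1, with 13.9 and 15.7 TPM for Chka and 0.981 and 1.62 TPM for Chkb. Over all groups, 29 members had a group mean above 5 TPM. The other 9 (Etnk2, Pcyt1b, Pemt, Agpat9, Lpin3, Cds1, Lpcat2, Mboat1 and Mboat2) ranged from 0 to 5.45 TPM, and Etnk2 was listed at 0 in 9 of 10 libraries. The 38 members together made up 1568 and 1544 TPM in control PBs, 1434 and 1477 TPM in Xbp1-deficient PBs, 1566 and 1459 TPM in Bhlha15 CreER/CreER PBs, 1522 and 1559 TPM in control PCs and 1537 and 1525 TPM in Mist1-deficient PCs.

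The comparison of Xbp1-deficient with control PBs asked which of these genes depend on XBP1 in PBs. Both choline transporter-like genes, Etnk1, Pcyt2 and Pcyt1a of the Kennedy pathway and Agpat6 of phosphatidic acid synthesis were lower without Xbp1, and 2 of the 3 final transferases were called higher. After scaling of the libraries to a common median and a filter of 1 TPM in at least 2 libraries, 34 members could be fitted with limma on log2(scaled TPM + 0.1). At an adjusted p under 0.05, 11 of the 34 (32.4%) were lower and 5 (14.7%) were higher, beside 18.0% lower and 10.3% higher among all 12125 genes fitted. The members' median log2 difference was −0.10 and that of all genes 0.0041, whereas the median absolute difference was 0.35 for the members and 0.23 for all genes. None of the members passed the study's stricter rule, a fold above 3 with more than 5 TPM, which 1.63% of all genes passed as lower and 0.239% as higher, while 20 members had an unadjusted limma p under 0.05. Fold changes here and below are on scaled values, whereas the levels given are deposited TPM. In bulk RNA, fewer cells of a type and less RNA per cell cannot be told apart.

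**Figure D1:**
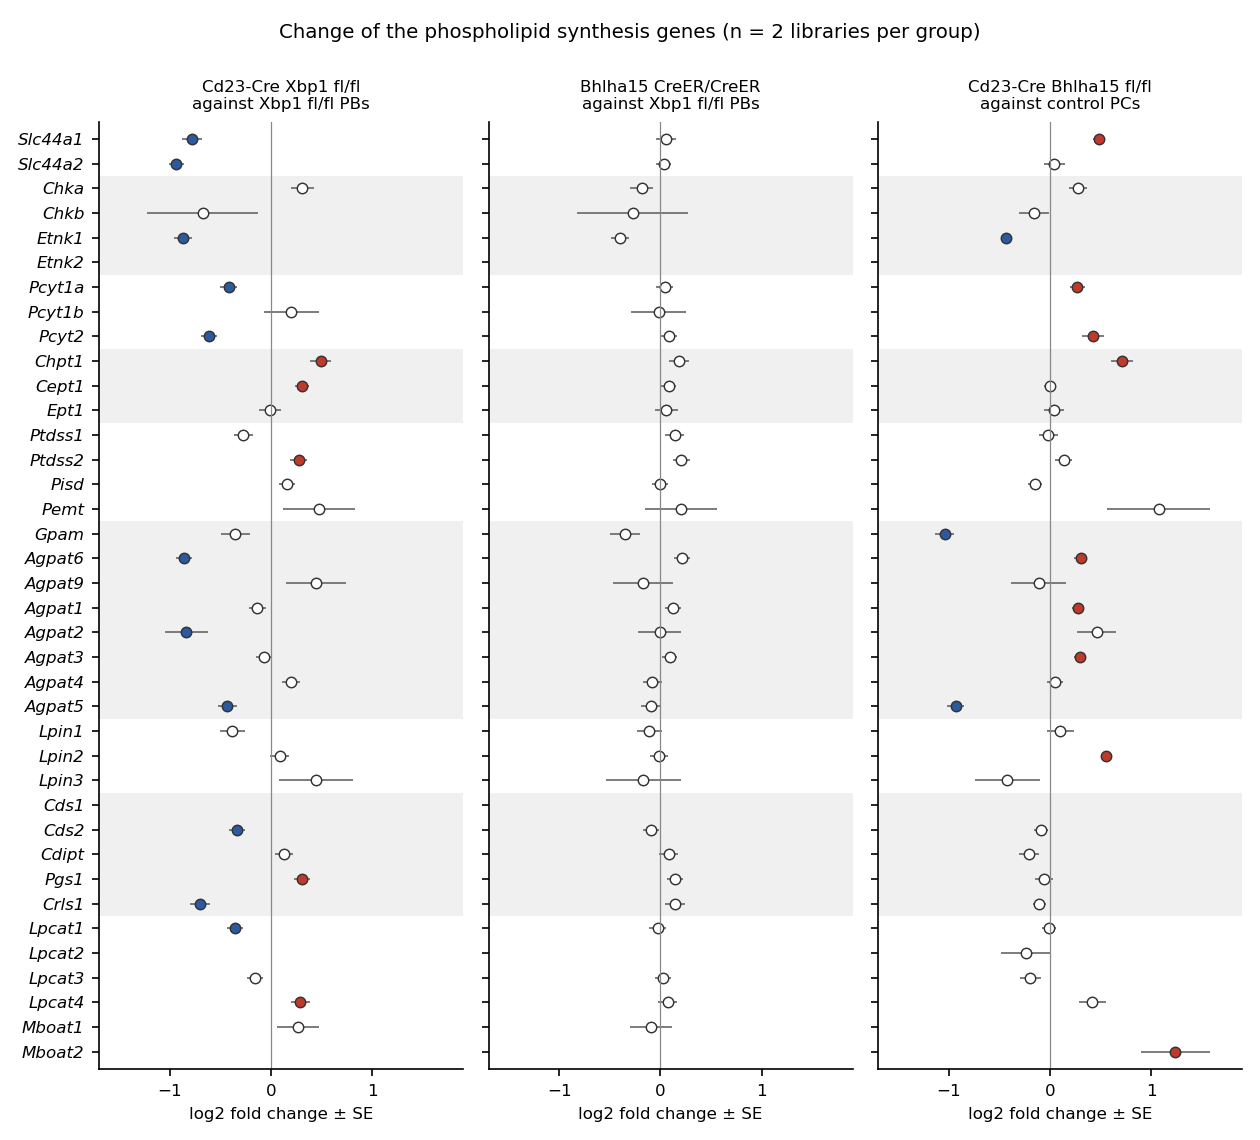
Log2 fold changes (x axis, log2 of scaled TPM + 0.1) with their standard errors for the fitted members, ordered by role (y axis, grey bands separate roles), in Xbp1-deficient against control PBs, Bhlha15 CreER/CreER against control PBs and Mist1-deficient against control PCs. Filled blue and red points passed an adjusted p under 0.05 as lower and higher, open points did not: 11 lower and 5 higher members in the left panel, none in the middle panel, 3 lower and 9 higher in the right panel.

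Both choline transporter-like genes fell. Slc44a1 was at 148 and 132 TPM in control PBs and at 87.9 and 100.1 TPM without Xbp1 (log2 −0.78, SE 0.10, adjusted p = 0.000636). Slc44a2 was at 46.4 and 51.8 TPM in control PBs and at 29.6 and 29.5 TPM without Xbp1, a 1.91-fold decrease (log2 −0.94, SE 0.07, adjusted p = 4.62e-05). The groups did not overlap for either gene. Among all genes, 19.95% had both deposited Xbp1-deficient values below both control values and 57.4% had both above, so that absence of overlap is common here, above all for higher values.

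Of the kinases, Etnk1 fell from 261 and 254 TPM to 151 and 176 TPM (log2 −0.87, SE 0.09, adjusted p = 0.000187). All Xbp1-deficient values lay below all control values. Chka, the main choline kinase here, had 21.9 and 20.5 TPM without Xbp1 beside 13.9 and 15.7 TPM in the controls, but the difference on scaled values did not pass the test (log2 0.31, SE 0.11, adjusted p = 0.0732). Of the cytidylyl transferases, Pcyt2, the enzyme of CDP-ethanolamine synthesis, fell from 57.0 and 58.8 TPM to 44.8 and 42.7 TPM (log2 −0.61, SE 0.08, adjusted p = 0.000822). Pcyt1a, the main enzyme of CDP-choline synthesis, fell from 31.5 and 30.9 TPM to 26.6 and 27.3 TPM (log2 −0.42, SE 0.08, adjusted p = 0.00682). Neither pair of groups overlapped. For ethanolamine, the kinase and the cytidylyl transferase were thus both lower.

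The final transferases stood on the other side. Chpt1, which makes phosphatidylcholine, rose from 12.7 and 12.03 TPM to 20.5 and 19.7 TPM (log2 0.49, SE 0.10, adjusted p = 0.00762). Cept1, which uses both CDP-choline and CDP-ethanolamine, rose from 43.7 and 44.8 TPM to 61.7 and 64.9 TPM (log2 0.31, SE 0.07, adjusted p = 0.0137). The groups did not overlap for either gene, as for 57.4% of all genes in this direction. The call of Cept1 was lost with any of the 4 libraries left out (adjusted p up to 0.106), and that of Chpt1 without the second control or the first Xbp1-deficient library (adjusted p up to 0.0689). Ept1, the ethanolaminephosphotransferase, had 13.4 and 14.6 TPM in control and 15.8 and 16.2 TPM in Xbp1-deficient PBs and was not called. Ptdss2, a phosphatidylserine synthase that acts on phosphatidylethanolamine, rose from 21.5 and 21.3 TPM to 29.1 and 30.6 TPM (log2 0.27, SE 0.09, adjusted p = 0.045). Ptdss1, the synthase that acts on phosphatidylcholine, had 58.1 and 51.9 TPM beside 50.6 and 54.3 TPM and was not called. Pisd, which decarboxylates phosphatidylserine in mitochondria, and Pemt, which methylates phosphatidylethanolamine, were not called either.

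In the path to phosphatidic acid, 3 of 8 fitted acyltransferase genes fell. Agpat6 went from 106 and 101 TPM to 64.8 and 66.2 TPM (log2 −0.86, SE 0.08, adjusted p = 9.72e-05). Agpat6 made up 90.0% and 87.0% of the summed glycerol-3-phosphate acyltransferase TPM in control PBs and 82.8% and 83.2% without Xbp1, and this sum fell with it, from 118 and 116 TPM to 78.3 and 79.7 TPM. Gpam, the mitochondrial enzyme of the same step, had 10.03 and 12.5 TPM beside 10.1 and 10.1 TPM and was not called. Agpat2, an acyltransferase of the next step, fell from 6.50 and 6.33 TPM to 3.52 and 4.77 TPM (log2 −0.84, SE 0.21, adjusted p = 0.0188). Agpat5, another of these acyltransferases, fell from 39.9 and 37.4 TPM to 34.9 and 31.4 TPM (log2 −0.43, SE 0.10, adjusted p = 0.0108). Groups did not overlap for these 3 genes, as for 19.95% of all genes in this direction. Agpat1, Agpat3 and Agpat4, which together with Agpat5 hold most of the mRNA of this step, were not called. Agpat1 had 114 and 126 TPM without Xbp1, Agpat3 had 111 and 107 TPM and Agpat4 had 54.3 and 46.4 TPM. None of the 3 lipin genes, whose products turn phosphatidic acid into diacylglycerol, was called, and Lpin1 came nearest (log2 −0.38, adjusted p = 0.0512).

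In the CDP-diacylglycerol branch, Crls1, the cardiolipin synthase, fell from 43.5 and 42.8 TPM to 32.3 and 28.8 TPM (log2 −0.70, SE 0.10, adjusted p = 0.00126). Cds2, which makes CDP-diacylglycerol, had 36.1 and 37.5 TPM in control and 33.5 and 33.7 TPM in Xbp1-deficient PBs and was called lower (log2 −0.34, SE 0.08, adjusted p = 0.0151). Pgs1, which makes the phosphatidylglycerol phosphate that precedes cardiolipin, rose from 38.2 and 38.7 TPM to 53.3 and 56.8 TPM (log2 0.31, SE 0.08, adjusted p = 0.0213). Within the cardiolipin path the values of Crls1 and Pgs1 thus went in opposite directions. The calls of Pgs1 and Cds2 were each lost with any of the 4 libraries left out. Of the remodelling enzymes, which put a new acyl chain onto a lysophospholipid, Lpcat1 was called lower (56.5 and 57.9 TPM beside 54.1 and 49.2 TPM, log2 −0.36, SE 0.08, adjusted p = 0.0135) and Lpcat4 higher (23.8 and 27.6 TPM beside 37.4 and 35.2 TPM, log2 0.29, SE 0.09, adjusted p = 0.0439). Lpcat3, the lysophosphatidylcholine acyltransferase of the ER, had 61.4 and 59.0 TPM beside 60.7 and 63.9 TPM and was not called.

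**Figure D2:**
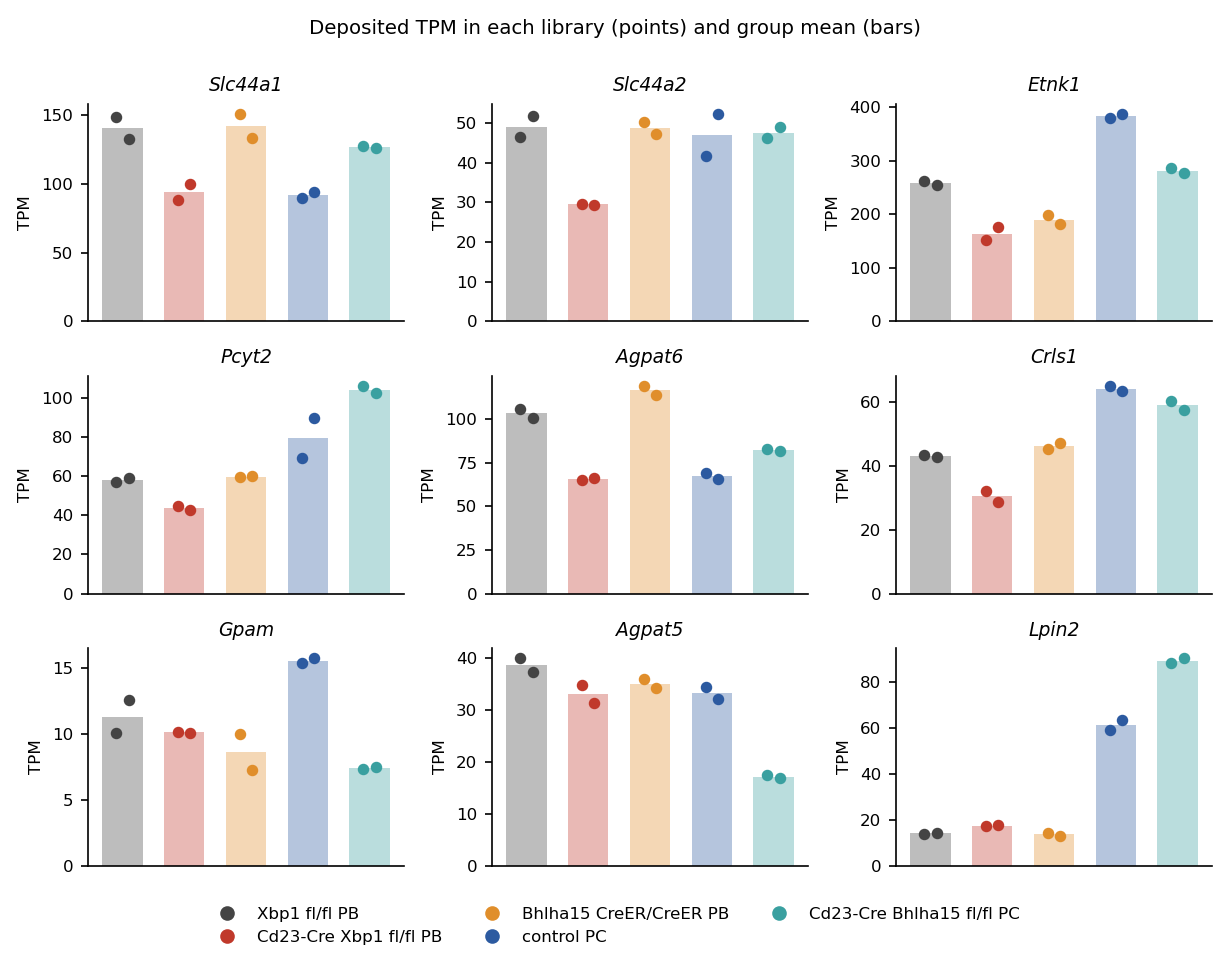
Deposited TPM (y axes, starting at 0) of 9 members in each of the 10 libraries (points) with the mean of each group (bars), for control, Xbp1-deficient and Bhlha15 CreER/CreER PBs and for control and Mist1-deficient PCs. Slc44a2 is lower in the Xbp1-deficient PBs (29.6 and 29.5 TPM) than in every other library, and Gpam and Agpat5 are lower in Mist1-deficient PCs (7.36 and 7.45 TPM, 17.4 and 16.9 TPM) than in control PCs.

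The direction of the small differences depended on the scaling. Without scaling, the median of all genes was 0.21 higher (log2) in Xbp1-deficient PBs, 7 members were called lower and 9 higher, and of all genes 1357 were lower and 3423 higher in place of 2186 and 1250. The calls of Pcyt1a, Agpat5, Cds2 and Lpcat1 were then lost, and Chka, Pisd, Agpat4 and Cdipt were called higher. Slc44a1, Slc44a2, Etnk1, Pcyt2, Agpat6 and Crls1 stayed lower in every alternative and with any library left out, whereas each of the 5 higher calls was lost in at least 1 of them. Without the first control library 6 members remained lower and 1 higher, and without the second control library none was higher. The sums of markers of antibody-secreting cells, feeder cells and neutrophils (10.3 to 11.6 TPM in control and 133 to 134 TPM in Xbp1-deficient PBs, 8 markers, Elane at 0 in both groups) moved with genotype. Of 6 macrophage markers, which summed to 135 to 136 and 32.9 to 35.6 TPM, Cd68 made up most (128 and 131 beside 16.9 and 18.7 TPM), whereas Lyz2 was at 5.86 and 5.22 beside 15.1 and 15.8 TPM and the other 4 were below 1 TPM. The B cell markers Ms4a1, Pax5, Cd22 and Cd79b summed to 1772 to 1838 TPM in control and 2916 to 2973 TPM in Xbp1-deficient PBs, while Cd22 alone was at 61.4 and 70.4 beside 40.8 and 34.9 TPM. The 6 T cell markers summed to 8.55 to 10.1 and 10.2 to 13.5 TPM in control and Xbp1-deficient PBs. The part of these markers in the differences was not tested.

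The comparison of Bhlha15 CreER/CreER with the same control PBs asked what loss of Mist1 alone does at this stage. None of the 34 fitted members was called by limma, beside 0.272% lower and 0.0495% higher among all genes (0.0330% and 0.0165% by the rule of a fold above 3). The differences ran from −0.40 to 0.21 on the log2 scale with a median of 0.03, and 4 members had an unadjusted p under 0.05. The lowest was Etnk1, with 261 and 254 TPM in control and 198 and 182 TPM in Bhlha15 CreER/CreER PBs (log2 −0.40, SE 0.09, adjusted p = 0.161). The Etnk1 values of the 2 groups did not overlap, as for 22.5% of all genes in this direction. Gpam (log2 −0.35), Ptdss2 (log2 0.21) and Agpat6 (log2 0.21) were the other 3. With few genes called anywhere in this comparison, absence of a call is no measure of sameness.

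Xbp1-deficient PBs were also compared directly with Bhlha15 CreER/CreER PBs, both of which lack most Bhlha15 mRNA. Since these share a model and the control libraries with the comparisons above, the values are given side by side and not as separate support. Of the 34 members, 12 were lower and 2 higher in Xbp1-deficient PBs, beside 17.8% and 9.34% of all genes, and none passed the rule of a fold above 3, which 1.66% and 0.239% of all genes did. Agpat6 differed most, with 119 and 114 TPM in Bhlha15 CreER/CreER and 64.8 and 66.2 TPM in Xbp1-deficient PBs (log2 −1.08). Slc44a2 (log2 −0.97), Crls1 (−0.85), Slc44a1 (−0.84), Agpat2 (−0.83) and Pcyt2 (−0.70) followed. In Bhlha15 CreER/CreER PBs these stood at 50.3 and 47.2 TPM (Slc44a2), 45.3 and 47.4 TPM (Crls1), 151 and 133 TPM (Slc44a1), 5.52 and 6.95 TPM (Agpat2) and 59.4 and 59.9 TPM (Pcyt2). None of these 5 overlapped with its values in Xbp1-deficient PBs, which held in this direction for 16.5% of all genes. Etnk1, which was already at 198 and 182 TPM in Bhlha15 CreER/CreER PBs, differed by −0.47 on the log2 scale. Pcyt1a, Ptdss1, Agpat5, Lpcat1 and Agpat1 were called lower with differences from −0.46 to −0.26. Chka (log2 0.49) and Cept1 (log2 0.23) were called higher. Without scaling, where the median of all genes was 0.26 higher, 5 members were lower and 10 higher beside 1266 and 3977 of all 12125 genes, and Slc44a1, Slc44a2, Pcyt2, Agpat6 and Crls1 remained lower in every alternative and with any library left out.

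In PCs, loss of Mist1 was followed by lower levels of 3 members and higher levels of 9. Of 34 fitted members these were 8.82% and 26.5%, beside 16.2% lower and 13.3% higher among 12028 genes. The members' median log2 difference was 0.05 and that of all genes 0.014, and no member passed the rule of a fold above 3, which 0.723% of all genes passed as lower and 0.125% as higher. Members called lower were an acyltransferase each of the steps to lysophosphatidic and to phosphatidic acid, and the ethanolamine kinase. Members called higher included a choline transporter, both cytidylyl transferases that could be fitted, and the lipin with the highest level. The calls of both cytidylyl transferases were lost without the filter, without the trend in limma and with either Mist1-deficient library left out.

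Gpam, the mitochondrial glycerol-3-phosphate acyltransferase, was at 15.3 and 15.7 TPM in control PCs and at 7.36 and 7.45 TPM in Mist1-deficient PCs (log2 −1.04, SE 0.09, adjusted p = 0.00213). Agpat5 was at 34.5 and 32.1 TPM in control and at 17.4 and 16.9 TPM in Mist1-deficient PCs (log2 −0.93, SE 0.09, adjusted p = 0.00216). Etnk1 was at 380 and 387 TPM in control and at 286 and 276 TPM in Mist1-deficient PCs (log2 −0.43, SE 0.05, adjusted p = 0.00435). In all 3 the groups did not overlap, as for 36.02% of all genes in this direction, and the call of Etnk1 was lost when the second Mist1-deficient library was left out (adjusted p = 0.0658). Set against the other enzymes of the same step, Gpam went from 17.8% and 18.9% of the glycerol-3-phosphate acyltransferase TPM to 8.05% and 8.18%. Agpat5 went from 16.0% and 14.6% of the lysophosphatidic acid acyltransferase TPM to 7.49% and 7.18%. These shares do not depend on the scaling of the libraries.

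Lpin2, whose product makes diacylglycerol from phosphatidic acid, rose from 59.3 and 63.5 TPM to 88.3 and 90.4 TPM (log2 0.56, SE 0.06, adjusted p = 0.00261). Slc44a1 rose from 89.4 and 94.1 TPM to 128 and 126 TPM (log2 0.48, SE 0.05, adjusted p = 0.00301). Chpt1 rose from 7.35 and 8.14 TPM to 12.2 and 13.0 TPM (log2 0.71, SE 0.10, adjusted p = 0.00678), and from 11.3% and 11.7% to 17.0% and 18.2% of the TPM of the 3 final transferases. The groups did not overlap for these 3 genes, as for 32.7% of all genes in this direction. Pcyt2 rose from 69.1 and 89.5 TPM to 106 and 103 TPM (log2 0.42, SE 0.11, adjusted p = 0.0319), and Pcyt1a from 24.9 and 24.2 TPM to 29.0 and 29.6 TPM (log2 0.27, SE 0.07, adjusted p = 0.0426). Agpat6 (69.2 and 65.8 beside 82.6 and 81.9 TPM), Agpat3 (58.1 and 61.0 beside 70.4 and 74.0 TPM) and Agpat1 (82.5 and 90.2 beside 102 and 105 TPM) were higher by 0.28 to 0.30 on the log2 scale. Mboat2, a lysophospholipid acyltransferase, was at 1.18 and 2.28 TPM in control and 4.63 and 3.405 TPM in Mist1-deficient PCs (log2 1.24, SE 0.34, adjusted p = 0.0422).

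Only Slc44a1, Lpin2, Gpam and Agpat5 kept their call in every alternative and with any library left out. Without the first Mist1-deficient library 3 members remained higher, without the second 2 members, and without the trend in limma 3 members. Without the second control library 5 members were lower. Marker sums of neutrophils (461 to 988 TPM in control and 560 to 845 TPM in Mist1-deficient PCs) and of macrophages (221 to 233 beside 201 to 236 TPM) overlapped. Within the macrophage list, Cd68 was higher in Mist1-deficient PCs (45.8 and 46.5 beside 72.8 and 64.3 TPM). Lyz2 (132 and 137 beside 121 and 104 TPM), Csf1r and Emr1 were lower there, and Cd14 and Itgam overlapped. Markers of T cells summed to 69.9 to 70.7 TPM in control and 77.7 to 100.4 TPM in Mist1-deficient PCs, and the same 4 B cell markers to 2001 to 2198 and 1839 to 1927 TPM. Of these 4, Ms4a1 (350 and 448 beside 269 and 309 TPM) and Cd79b were lower, and Pax5 and Cd22 overlapped. The 8 markers of antibody-secreting cells summed to 91316 to 97311 and 96658 to 98451 TPM. Among them Sdc1 (458 and 395 beside 571 and 566 TPM), Irf4 (688 and 739 beside 947 and 886 TPM) and Prdm1 (175 and 198 beside 237 and 203 TPM) were higher. Tnfrsf13b was higher by little (347.7 and 323.9 beside 348.2 and 356.3 TPM). Tnfrsf17 was lower (584 and 572 beside 486 and 480 TPM). Of 4 erythroid markers 3 were found, and they summed to 8.05 to 9.91 TPM in control and 3.97 to 7.75 TPM in Mist1-deficient PCs. The part of all these markers in these results was not tested.

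Whether the difference without Mist1 was unlike in PCs and PBs was tested as an interaction in a model of all 10 libraries. This test uses the same libraries as the comparisons above, and the Bhlha15 alleles and the control genotypes differ between the stages. Of 36 fitted members, 1 (2.78%) had a lower and 2 (5.56%) a higher difference in PCs, beside 4.17% and 1.94% of 13230 genes. Agpat5, at 39.9 and 37.4 TPM in control and 35.96 and 34.2 TPM in Bhlha15 CreER/CreER PBs, had the lower value (interaction −0.82, SE 0.12, adjusted p = 0.0107). Lpin2, at 13.9 and 14.5 TPM in control and 14.2 and 13.2 TPM in Bhlha15 CreER/CreER PBs, had a higher value (interaction 0.59, SE 0.08, adjusted p = 0.00939). Chpt1, at 12.7 and 12.03 beside 14.4 and 12.9 TPM in the same PBs, was the other (interaction 0.55, SE 0.13, adjusted p = 0.0456), and its call was lost with any library left out. Gpam did not pass (interaction −0.67, adjusted p = 0.0816), nor did Slc44a1 (0.44, adjusted p = 0.0509). The Etnk1 difference was similar in size at both stages, with an interaction of −0.02.

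Control PCs and control PBs differed in 29 of 36 fitted members. By limma in the same 10-library model 19 (52.8%) were lower and 10 (27.8%) higher in PCs, beside 38.4% lower and 37.6% higher among all genes. The members' median was −0.34 beside 0.0064 for all genes, and their median absolute difference of 0.52 lay below the 0.69 of all genes. By the rule of a fold above 3 with more than 5 TPM, 1 member was lower (Lpcat4) and 2 higher (Lpin2 and Chkb), beside 6.19% and 7.77% of all genes. The control PC mean of Chkb, 5.22 TPM, lay just above the limit of 5 TPM. Stage, culture or immunized mouse, sorting gate, control genotype and sequencing run cannot be told apart in this comparison. Pcyt1b and Mboat1 passed the filter only through the PBs, and Lpcat2 and Mboat2 only through the PCs, so that these 4 had to differ. Pcyt1b was at 2.24 and 3.28 TPM in control PBs and 0.203 and 0.384 TPM in control PCs, and Mboat1 at 3.04 and 2.92 TPM and at 0.654 and 0.507 TPM. Mboat2 was at 0 and 0.0857 TPM in control PBs and at 1.18 and 2.28 TPM in control PCs.

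**Figure D3:**
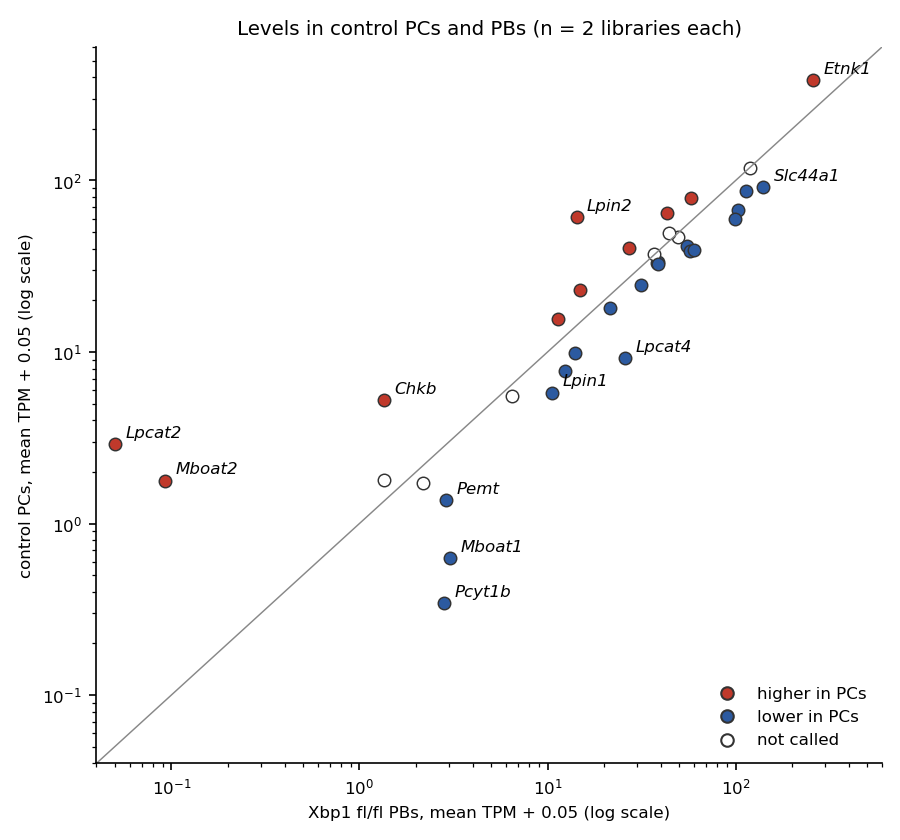
Mean TPM + 0.05 of the members in control PBs (x axis, log scale) and control PCs (y axis, log scale), coloured by the call at an adjusted p under 0.05, with the line of equal levels. Lpin2 and Chkb lie above the line, Lpcat4 and Lpin1 below it, and 19 members were called lower and 10 higher in PCs.

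The widest change among members above 5 TPM was that of Lpin2, from 13.9 and 14.5 TPM in control PBs to 59.3 and 63.5 TPM in control PCs (log2 1.99, SE 0.06, adjusted p = 2.08e-08). Lpin1 went the other way, from 9.81 and 11.2 TPM to 5.92 and 5.57 TPM (log2 −0.97). Lpin2 therefore held 55.5% and 53.7% of the lipin TPM in control PBs and 88.3% and 89.9% in control PCs, and 92.0% and 92.8% in Mist1-deficient PCs. Chkb, the lesser choline kinase, rose from 0.981 and 1.62 to 5.204 and 5.23 TPM (log2 1.85), beside Chka with 13.9 and 15.7 and then 21.1 and 25.1 TPM (log2 0.52). Etnk1 (log2 0.46), Crls1 (0.46), Pisd (0.45), Gpam (0.35) and Pcyt2 (0.33) were also higher in PCs. The call of Gpam was lost in 3 of 9 alternatives and with 3 of the 4 libraries left out in turn (adjusted p up to 0.272), and that of Pcyt2 without the second control PC library (adjusted p = 0.0707). Crls1 was at 65.1 and 63.7 TPM in control PCs, and Pisd went from 26.7 and 27.4 to 40.5 and 39.9 TPM. All kinases that could be fitted were thus called higher.

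**Figure D4:**
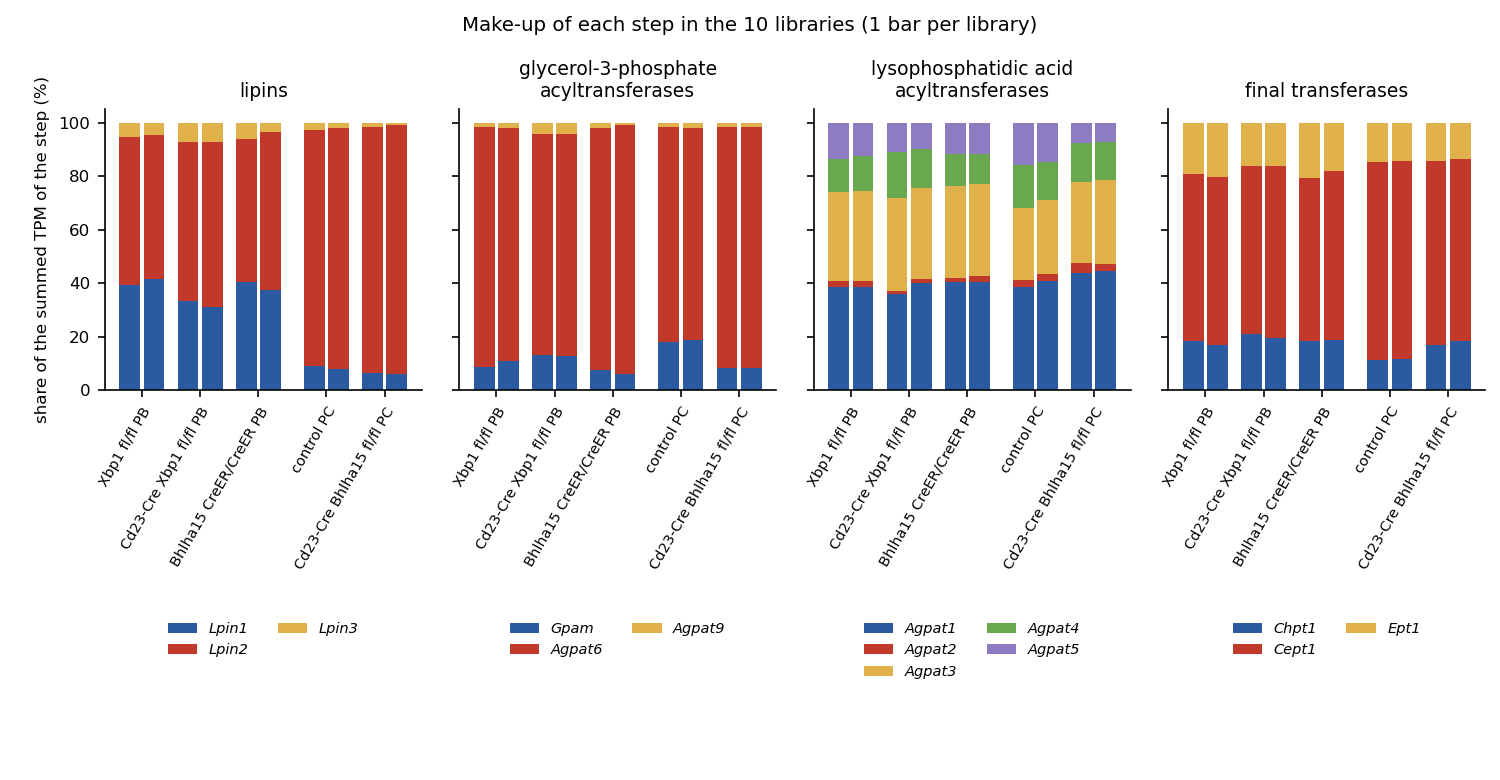
Share of the summed TPM (y axis, percent) held by each enzyme of a step, for lipins, glycerol-3-phosphate acyltransferases, lysophosphatidic acid acyltransferases and final transferases, with 1 stacked bar for each of the 10 libraries. Lpin2 takes 53.7% to 55.5% of the lipin TPM in control PBs and 88.3% to 89.9% in control PCs, and the shares of Gpam and Agpat5 are lower in Mist1-deficient than in control PCs.

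Among members that were lower in PCs, Lpcat4, an acyltransferase of lysophospholipids, fell from 23.8 and 27.6 TPM to 7.92 and 10.3 TPM (log2 −1.61, SE 0.11). The other remodelling genes Lpcat3 (61.4 and 59.0 to 42.3 and 36.2 TPM, log2 −0.73) and Lpcat1 (56.5 and 57.9 to 36.4 and 41.6 TPM, log2 −0.67) fell as well. Lpcat2 was listed at 0 in both control PBs and at 2.44 and 3.26 TPM in control PCs. Of the acyltransferases of phosphatidic acid synthesis, Agpat3 fell from 99.2 and 99.3 to 58.1 and 61.0 TPM (log2 −0.85) and Agpat6 from 106 and 101 to 69.2 and 65.8 TPM (log2 −0.73). Agpat1 (log2 −0.52), Agpat5 (−0.33) and Agpat4 (−0.32) were also lower. Slc44a1 (log2 −0.72), Chpt1 (−0.78), Ept1 (−0.62), Ptdss1 (−0.52), Pcyt1a (−0.46), Pgs1 (−0.36) and Ptdss2 (−0.35) made up the rest of those above 5 TPM. In control PCs, Ept1 was at 9.54 and 10.1 TPM, Ptdss1 at 44.0 and 38.9 TPM, Pgs1 at 32.7 and 32.3 TPM and Ptdss2 at 18.3 and 17.8 TPM. All 4 lay below both control PB values given above, as did 39.3% of all genes. Pemt, the methyltransferase, was at 2.10 and 3.60 TPM in control PBs and 1.98 and 0.657 TPM in control PCs (log2 −1.29), and its call was lost in 3 of 8 alternatives and with 2 of the 4 libraries left out in turn (adjusted p up to 0.288). Those of Agpat4 (adjusted p = 0.0611) and Agpat5 (adjusted p up to 0.0567) were lost without the second control PC library, and that of Agpat5 also without the first control PB library. The feeder markers, at 928 to 1108 TPM in control PBs and 1.51 to 1.56 TPM in control PCs, and the neutrophil markers, at 10.3 to 11.6 and 461 to 988 TPM, moved with this comparison, and their part in it was not tested.

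A fixed list of 59 other genes of phospholipid metabolism was tested in the same fits. In Xbp1-deficient PBs, 18 of the 50 that could be fitted (36%) were lower and 3 (6.00%) higher, beside 18.0% and 10.3% of all genes. Ppapdc1b, a lipid phosphate phosphatase, was at 311 and 299 TPM in control and at 27.3 and 25.9 TPM in Xbp1-deficient PBs (log2 −3.72, SE 0.10, adjusted p = 1.62e-07). Acsl3, which activates long-chain fatty acids, was at 40.3 and 40.2 beside 17.1 and 13.4 TPM (log2 −1.61, adjusted p = 2.77e-05). Pld3, of the phospholipase D family, was at 324 and 293 beside 166 and 160 TPM (log2 −1.12), and Pld4 of the same family was at 42.8 and 45.2 beside 121 and 96.2 TPM (log2 1.08). These exceeded every change among the 38 members in the same comparison. Of the 50 related genes, 8.00% were called with an absolute log2 difference above 1, as were 5.85% of all genes. Between Xbp1-deficient and Bhlha15 CreER/CreER PBs these shares were 8.00% and 5.67%. None of the 50 was called in Bhlha15 CreER/CreER PBs (6 had an unadjusted p under 0.05). Between Xbp1-deficient and Bhlha15 CreER/CreER PBs 14 were lower and 3 higher of 50 (28.0% and 6.00%, beside 17.8% and 9.34% of all genes), with log2 differences of −3.55 for Ppapdc1b, −1.68 for Acsl3, −1.19 for Pld3 and 1.32 for Pld4. In Mist1-deficient PCs 12 of 46 were lower (26.1%) and 5 higher (10.9%) beside 16.2% and 13.3% of all genes. Far2, a fatty acyl-CoA reductase, was at 13.3 and 16.4 TPM in control and 5.96 and 6.51 TPM in Mist1-deficient PCs (log2 −1.21, adjusted p = 0.0028). It was the only related gene called above 1 there (2.17%, beside 4.55% of all genes).

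Between control PCs and PBs 27 of 51 related genes (52.9%) were lower and 17 (33.3%) higher, beside 38.4% and 37.6% of all genes. Of the 51, 21 (41.2%) were called with a difference above 1 on the log2 scale, as were 36.2% of all genes. Among the phosphatidate phosphatases, Ppap2a (log2 −1.03), Ppap2b (−1.26) and Ppap2c (−2.65) were lower and Ppapdc1b was higher (1.04, from 311 and 299 to 713 and 647 TPM). All 3 diacylglycerol kinases that passed this size were higher, namely Dgka (log2 1.76), Dgkq (1.16) and Dgke (just above 1). Of the other listed ones, Dgkz was at 69.9 and 72.7 TPM in control PBs and 125 and 120 TPM in control PCs. Dgkd, which had the highest level of these kinases, was at 302 and 316 and then 265 and 287 TPM. Of the phospholipases, Pld1 (log2 −2.36) and Pla2g4a (−1.46) were lower, and Pla2g6 (1.14), Pnpla6 (1.67) and the glycerophosphodiesterase Gpcpd1 (1.10) were higher. Pld3 and Pld4, named for the phospholipase D family by sequence, were lower (log2 −1.12) and higher (2.48). Sgms2, a sphingomyelin synthase (log2 −3.25), Dgat2, which makes triacylglycerol (−2.61), the acyl-CoA synthetases Acsl3 (−1.71) and Acsl5 (−1.06) and the lipid carrier Prelid1 (−1.05) were lower. Far2 (log2 2.36) and Stard10 (1.12) were higher. In the interaction 5 of 51 were lower (9.80%, beside 4.17% of all genes) and none higher, and Ppap2a passed the size of 1 (−1.01, adjusted p = 0.0134).

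Mist1 binding at these genes was taken from the 2 deposited peak lists of 29413 and 30247 peaks, which shared 23804 regions where peaks overlapped by at least 1 base. The lists used here are shorter than those the study describes, so that a gene without a region here may have a peak that was not analysed. A common region lay within 1 kb of a transcription start site in 26 of the 38 members. Among the 34 members fitted in PBs, this was 76.5%, beside 63.3% of 11311 fitted genes that could be placed on the genome. With only the start site of the longest coding transcript, the shares were 64.7% and 59.99%. Peaks of the first experiment alone gave 79.4% and 68.2%, and those of the second gave 76.5% and 69.1%. A peak overlap of at least 50% gave 73.5% and 58.5%, and a distance of 2.5 kb gave 76.5% and 65.7%. The difference between members and all genes was not tested. With gene bodies included, 29 members had a region. The 9 without any in these lists were Slc44a2, Chka, Etnk2, Pcyt1b, Pcyt2, Agpat2, Lpcat2, Mboat1 and Mboat2. Of the members called in Mist1-deficient PCs, all 3 lower ones and 6 of 9 higher ones had a region at a start site, as did 17 of 22 that were not called. For Gpam, Lpin2, Agpat1 and Agpat3 this was an annotated start site other than that of the longest coding transcript. The binding was mapped in LPS-stimulated PBs, and expression was compared in PCs of immunized mice.

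**Figure D5:**
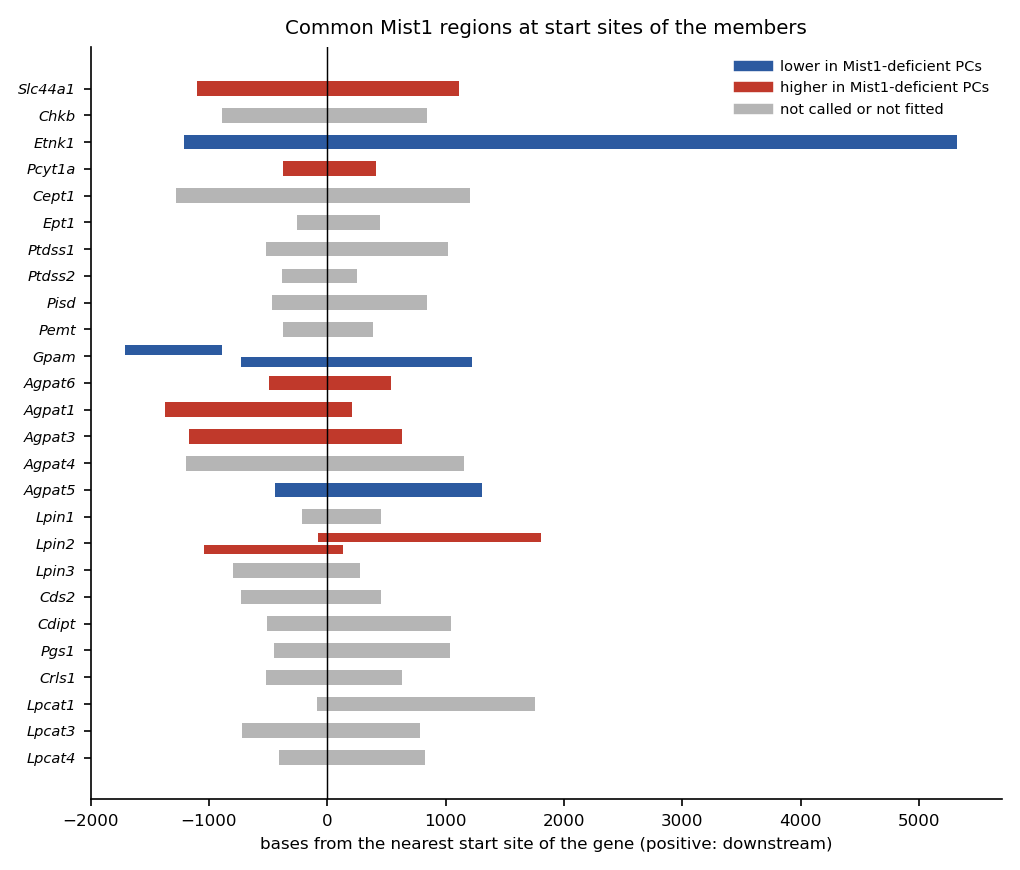
Extent of the 28 common Mist1 regions at start sites of 26 members (y axis) relative to the nearest start site at 0 (x axis, bases, positive in the direction of transcription), coloured by the call in Mist1-deficient PCs. Gpam and Lpin2 have 2 regions each, and the centre of 23 regions lies within 500 bases of a start site.

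The regions at start sites had a median width of 1495.5 bases, from 638 to 6532 bases. The E-box CAGCTG, a palindrome of 6 bases that factors of the Mist1 family can recognise, occurred in 19 of these 28 regions. In the central 200 bases it occurred in 23.2% of all 56 regions at the members and in 27.9% of the 23804 regions. As examples of sequence within these regions at genes called in Mist1-deficient PCs, 80 bases around an intronic E-box are given. They come from 3 genes that were lower and 1 that was higher. The motif lay 102 (Gpam), 419 (Agpat5), 505 (Etnk1) and 29 (Lpin2) bases from the centre of its region. Coordinates and sequence are those of mm9 (NCBIM37), each is printed 5′ to 3′ on the strand of its gene, and capitals mark CAGCTG. The Gpam stretch is chr19:55173554-55173633 on the minus strand, with the motif 347 bases after the nearest annotated start site. The Agpat5 stretch is chr8:18847089-18847168 on the plus strand, 850 bases after the start site. The Etnk1 stretch is chr6:143118267-143118346 and the Lpin2 stretch is chr17:71534172-71534251, both on the plus strand, with the motif 2557 and 894 bases after the nearest start site.
Gpam: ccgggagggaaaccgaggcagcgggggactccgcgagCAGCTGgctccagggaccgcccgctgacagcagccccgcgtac
Agpat5: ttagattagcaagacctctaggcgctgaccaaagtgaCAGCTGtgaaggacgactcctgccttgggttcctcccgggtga
Etnk1: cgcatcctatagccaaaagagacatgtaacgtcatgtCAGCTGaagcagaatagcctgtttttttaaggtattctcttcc
Lpin2: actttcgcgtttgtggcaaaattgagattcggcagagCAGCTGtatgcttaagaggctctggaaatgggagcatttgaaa
A match is a description of the letters, and it does not show which bases were bound.

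Promoters were taken from 250 bases before to 50 bases after the start of the longest coding transcript. They were searched on both strands for letters that XBP1 and ATF6 are known to bind. The core GACGTG of the unfolded protein response element occurred in 2 of 34 fitted members (5.88%) and in 9.51% of 11311 genes. Those 2 were Agpat6 and Lpcat1, both called lower in Xbp1-deficient PBs. The call of Lpcat1 was lost with deposited TPM, and without either control library or the second Xbp1-deficient library. Whether the motif has a part in these differences was not tested. The 30 bases around each match are shown on the gene's own strand, on which the motif reads as CACGTC (in capitals), since it lies on the opposite strand. The Agpat6 stretch is chr8:24318878-24318907 on the minus strand, 31 bases after the start, and the Lpcat1 stretch is chr13:73604645-73604674 on the plus strand, 13 bases after the start.
Agpat6: gggagtggggtcCACGTCcagcggcgtaga
Lpcat1: gttggccccaccCACGTCacgccgcccctc
The longer form TGACGTG, which contains the core, occurred in 2.88% of genes and in Lpcat1. The ER stress response element, CCAAT and CCACG with 9 bases between them, occurred in 0.141% of genes and in none of the 34 members. CAGCTG occurred in 8 of the 34 promoters (23.5%) and in 14.4% of all.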

How the data were processed

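RNA was sequenced as 50-nt single reads from NEBNext Ultra II Directional libraries. The authors trimmed reads with cutadapt, aligned them to mm9 with STAR 2.4.2, counted them with featureCounts 1.5 and deposited TPM values computed without immunoglobulin and T cell receptor genes. The plasma cell files list 543 further names that are all at 0. Mist1 ChIP-seq reads were aligned with Bowtie 1.0.0, and the deposited peak lists hold positions that the authors called with MACS in each experiment against an input of mature B cells, with no score. Picard 2.18.27 and SAMtools 1.9 are also named in the submitters' processing notes. The annotation and the strand setting are not given in the sources used here.

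Each library was scaled by its median ratio to a geometric-mean reference over genes detected throughout, and genes reaching 1 TPM in 2 or more libraries of a model were tested with limma 3.58.1 in R 4.3.3 (trend, Benjamini-Hochberg over all genes fitted, two-sided) on log2(value + 0.1). The study tested counts. The 6 PB libraries, the 4 PC libraries and all 10 libraries formed a model each. An exact permutation test of 2 against 2 libraries cannot give a p below 0.333. The scripts were tested on simulated data with 200 changed genes. The 38 members, the 59 related genes and the marker lists were chosen with earlier results of these data known. 1 marker of the lists is not reported here. Members above 5 TPM in a group and members called in a comparison were described by value, and related genes were named where called with an absolute log2 difference above 1. All 38 members were placed by gene name on the NCBIM37 annotation, and 11311 of 12125 fitted genes were. Peak lists were joined with bedtools 2.31.1, sequences were read with pyfaidx 0.9.0.4 from the reference genome of the same build, and tables and plots were made with numpy 2.4.6, pandas 2.3.3 and matplotlib 3.10.9 under Python 3.11.15. Alternatives were deposited TPM, quantile normalization, pseudocounts of 1 and 0.01, no filter and a filter of 5 TPM, limma without trend or robust (statmod 1.5.0), only the 4 libraries compared, and each library left out.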

Additional observations from a re-analysis of the deposited data

Results flagged for a closer look

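For 3 members the difference without Mist1 in PCs was unlike that in Bhlha15 CreER/CreER PBs by the interaction in limma. The change in PCs minus that in PBs was −0.82 on the log2 scale for Agpat5, which fell by 0.93 in PCs. It was 0.59 for Lpin2, which was higher by 0.56 in PCs, and 0.55 for Chpt1, which was higher by 0.71 in PCs. The alleles and the control genotypes differ between the stages, so that stage and allele cannot be told apart. Agpat5 and Lpin2 passed the test in every alternative and with any library left out, with an adjusted p of at most 0.0475 for Agpat5 and 0.0487 for Lpin2. Chpt1 did not pass with any library left out, and its adjusted p was then up to 0.16.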

How the results depend on the processing

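No single member changed sign in a called comparison under any alternative run, but counts of called members moved. With deposited TPM, 7 members were lower and 9 higher in Xbp1-deficient against control PBs, 5 were lower and 10 higher against Bhlha15 CreER/CreER PBs, and 1 had a higher interaction. With quantile normalization, 9 were higher in the first, 8 higher in the second, and 2 had a lower and 4 a higher interaction. Without a filter, 3, 1 and 1 members were higher in these comparisons, and with the filter of 5 TPM 4 were higher against Bhlha15 CreER/CreER PBs. Without the trend, 2 were higher in Xbp1-deficient against control PBs, 7 were lower and 1 higher against Bhlha15 CreER/CreER PBs, 3 were higher in Mist1-deficient PCs and 1 had a higher interaction. With only the 4 libraries compared, 1 was higher against Bhlha15 CreER/CreER PBs. With each library left out, Xbp1-deficient against control PBs gave 6 to 9 lower and 0 to 1 higher members, and against Bhlha15 CreER/CreER PBs 9 to 12 lower and 0 to 2 higher. Mist1-deficient PCs gave 2 to 5 lower and 2 to 10 higher, control PCs against PBs 17 to 20 lower and 8 to 10 higher, and the interaction 1 to 2 lower and 1 to 2 higher. The count in Bhlha15 CreER/CreER against control PBs was 0 throughout. In all, 134 counts of members stayed within 1.5 times and 36 moved beyond, and of values of single genes 2948 stayed on their side of the threshold, 135 lost and 54 gained a call. The causes were not tested. Alternatives for the interaction were chosen after seeing the data. Members with a Mist1 region at a start site numbered 22 to 29. No paired analysis was possible because the labels give no replicate numbers, and the sources used here do not say which libraries of different genotypes belong to the same experiment. Each group has 2 libraries, where a lone remaining library is assumed to vary like the other groups, and depth is unknown.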
